A study of Rattus norvegicus with 9 samples.

Results

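The coactivators Ppargc1a and Ppargc1b, the oestrogen-related receptors Esrra and Esrrg, the fatty acid receptors Ppara and Ppard, the nuclear respiratory factor gene Nrf1 and the mitochondrial DNA factor Tfam were examined in rat gastrocnemius, the large calf muscle, which holds slow and fast fibres. They were taken by name: every probe set whose single gene symbol in the platform annotation was one of these 8 genes was kept, which gave 14 of the 31042 probe sets other than controls. Of these, 10 were bright enough to be tested. The single Ppara probe set and 1 probe set each of Ppargc1a, Ppard and Nrf1 were too dim. In male Wistar rats of 250 g, 3 animals received dexamethasone plus testosterone (the combination), 3 dexamethasone and 3 vehicle alone (propylene glycol), each by osmotic pump for 7 days and with 1 array per animal. Dexamethasone, a synthetic glucocorticoid, was given at 0.7 mg/kg/day. The testosterone dose is 28 mg/kg/day in the sample labels and 20 mg/kg/day in the series design, and which is right is unknown here. No group received testosterone alone. RNA came from whole muscle tissue and was measured as 1 signal per probe set on Affymetrix rat arrays.

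PGC-1 proteins do not bind DNA themselves. They dock on receptors such as the oestrogen-related receptors and the PPARs, and on NRF1, and raise transcription of genes for fat oxidation and the respiratory chain. NRF1 in turn drives nuclear genes for mitochondria, Tfam among them, and TFAM packages mitochondrial DNA and starts its transcription. In skeletal muscle this circuit is known for its part in endurance training and in the oxidative character of slow fibres.

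Each value below is the quantile-normalized log2 of the deposited intensity plus 16, and each change is a difference of group means on that scale, with its standard error (SE) from a limma fit over all 9 arrays. An adjusted p is that of limma after Benjamini-Hochberg adjustment over 18625 probe sets, and the threshold was 0.05. Signals of different probe sets cannot be ranked against one another as transcript amounts. The median deposited signal per array was 25.8 to 132.1, and arrays correlated at 0.9076 to 0.9654 across probe sets after normalization. Skeletal muscle markers averaged 14.29 to 14.41 on all 9 arrays. Of 6 glucocorticoid-induced genes, 5 (Per1, Tsc22d3, Ddit4, Cebpd and Klf15) rose in dexamethasone muscle against vehicle muscle, and Fkbp5 did not pass. The median change of the 6 was 2.03 there. It was -1.05 in combination muscle against dexamethasone muscle and 0.81 in combination muscle against vehicle muscle, and in neither did any of the 6 pass.

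The arrays fell into 3 technical sets, named A, B and C and defined after the values had been seen. Set A is the 4 arrays whose deposited signals were not on the common scale: replicate 1 of the combination, replicate 1 of dexamethasone and replicates 1 and 3 of vehicle. Set B is replicate 2 of each group. Set C, replicate 3 of the combination and replicate 3 of dexamethasone, had a Gapdh signal 6.22 and 4.94 times as high at the 3' end as at the 5' end, against 1.06 to 1.17 times on the other arrays, and it holds no vehicle array. Combination replicate 1 also stood apart: the 10 measured slow fibre contractile genes averaged 8.71 on it, and 13.13 and 11.96 on the other combination arrays, against 13.38 to 13.77 on dexamethasone arrays and 13.17 to 13.48 on vehicle arrays.

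The promoters of Ppargc1a and Tfam are shown because each holds a motif of a factor known to act upstream of it, CREB for Ppargc1a and GABP for Tfam. They run from 250 bases before a listed start of the gene to 50 after it, from RefSeq on the GRCr8 build. Entries were there for 7 of the 8 genes. Positions are counted from that listed start. For Ppargc1a, Ppara, Esrra, Nrf1 and every Esrrg entry the start used lies inside the annotated gene span given below and not at its end. In the Ppargc1a promoter, chr14:63634058-63634357 on the plus strand, capitals mark the cAMP response element TGACGTCA at -181 to -174. In the Tfam promoter, chr20:17355123-17355422 on the plus strand, capitals mark the core site of the GABP factor, CCGGAAG, at -56 to -50.
Ppargc1a: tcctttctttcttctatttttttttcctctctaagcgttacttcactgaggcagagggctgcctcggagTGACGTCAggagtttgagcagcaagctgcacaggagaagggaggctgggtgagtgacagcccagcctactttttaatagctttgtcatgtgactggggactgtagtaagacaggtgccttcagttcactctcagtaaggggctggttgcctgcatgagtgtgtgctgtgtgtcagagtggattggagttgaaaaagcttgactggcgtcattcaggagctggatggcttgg
Tfam: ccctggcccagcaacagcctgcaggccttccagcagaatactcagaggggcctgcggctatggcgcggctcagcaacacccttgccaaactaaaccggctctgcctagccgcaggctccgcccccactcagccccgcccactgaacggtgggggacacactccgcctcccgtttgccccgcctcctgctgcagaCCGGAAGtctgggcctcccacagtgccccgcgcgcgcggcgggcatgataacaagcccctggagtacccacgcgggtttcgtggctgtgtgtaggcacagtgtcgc
Searched on both strands, the cAMP response element was in 1.83% and the GABP core in 8.75% of 33469 rat promoters of this length. The NRF1 motif, present in 4.25% of all promoters, was in the Ppara entry (chr7:118712357-118712656) at -100 to -91, where it reads GCGCATGCGC on both strands. The oestrogen-related receptor element TCAAGGTCA (0.433% of all promoters), the PPAR element, a pair of AGGTCA copies 1 base apart (0.0538%), and the glucocorticoid response element (0.439%) were in none of the 10 entries of these genes. The element searches give letters only and no measure of binding.

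None of the 10 tested probe sets passed the threshold in any comparison. Of all tested probe sets, 1.05% (196) passed in dexamethasone muscle against vehicle muscle, 0.113% (21) in combination muscle against dexamethasone muscle, and 0% in combination muscle against vehicle muscle. At an unadjusted p under 0.05 there were 2 of 10 in each comparison, where 15.5%, 11% and 6.12% of all tested probe sets lay. These were Ppargc1b and 1 Nrf1 probe set in dexamethasone over vehicle and in the combination over dexamethasone, and both Esrrg probe sets in the combination over vehicle. The arrays of the 2 groups did not overlap for 3, 2 and 2 of the 10 probe sets, against 22.9%, 14.6% and 13.3% of all tested probe sets. In dexamethasone over vehicle all 3 (Ppard, Tfam and 1 Nrf1 probe set) were higher and none lower, where 12.5% of all tested probe sets were higher and 10.4% lower. In the combination over dexamethasone 1 was higher (Ppargc1b) and 1 lower (Nrf1), against 7.24% and 7.35% of all. In the combination over vehicle 1 was higher (Ppargc1a) and 1 lower (Esrrg), against 7.53% and 5.79% of all. The SE of the 10 ran from 0.23 to 0.54, with a median of 0.32 against 0.27 for all. The smallest change that passed anywhere on the arrays was 0.89 for dexamethasone over vehicle and 1.40 for the combination over dexamethasone. The comparisons share arrays, so their values stand side by side below without being set against each other as separate evidence.

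**Figure D1:**
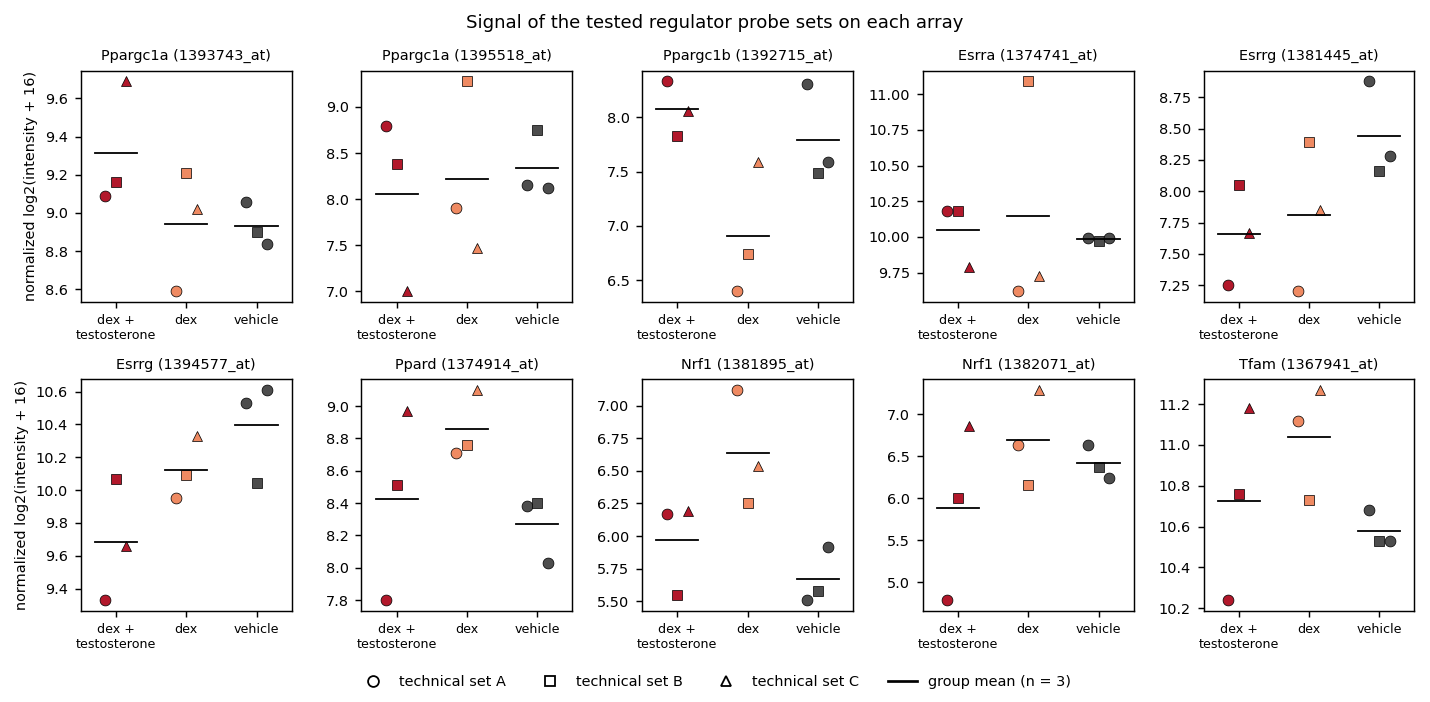
Normalized log2(intensity + 16) (vertical axis) of the 10 tested probe sets on each array, by group (horizontal axis: combination, dexamethasone, vehicle). Symbols give the technical set and black lines the group mean of 3 arrays. Ppargc1b shows dexamethasone arrays at 6.40 to 7.59, all below the combination arrays at 7.83 to 8.33. Pairs of groups also stand apart for Ppard, Tfam, Nrf1 1381895_at, Ppargc1a 1393743_at and Esrrg 1381445_at. The remaining panels show groups that overlap.

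Ppargc1b, which encodes PGC-1β and shares most receptor partners with PGC-1α, gave the largest difference among these genes (probe set 1392715_at, gene at chr18:57029264-57131466). It stood at 8.33, 7.83 and 8.06 on the combination arrays, at 6.40, 6.74 and 7.59 on the dexamethasone arrays, and at 8.30, 7.49 and 7.59 on the vehicle arrays. All combination arrays were above all dexamethasone arrays, whereas the dexamethasone array of set C reached the lowest vehicle arrays. The group means were 8.07 ± 0.25 in combination muscle, 6.91 ± 0.61 in dexamethasone muscle and 7.79 ± 0.44 in vehicle muscle (SD, n = 3 each).

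The combination over dexamethasone was 1.16 ± 0.34 (SE, 95% interval 0.40 to 1.93), a 2.24-fold difference whose adjusted p of 0.2391 did not pass. For dexamethasone over vehicle it was -0.88 ± 0.34 (-1.64 to -0.11), with an adjusted p of 0.2554. Combination over vehicle was 0.28 ± 0.34, with an adjusted p of 0.9144. Within the technical sets the combination over dexamethasone was 1.93 in A, 1.08 in B and 0.47 in C. Those of dexamethasone over vehicle were -1.54 in A and -0.74 in B. The direction was thus the same in each set. For the combination over dexamethasone this adds nothing, since groups that do not overlap must differ in 1 direction within every set. These differences rest on very few arrays per set, so their sizes cannot be held against that SE. Without dexamethasone replicate 3, of set C, the lowest adjusted p of any alternative was reached, 0.07853 for the combination over dexamethasone and 0.09377 for dexamethasone over vehicle. The highest adjusted p of any alternative was 0.5532 and 0.5468 in the same order. Fibroblast markers also differed between arrays. The median of the 10 measured ones, relative to the vehicle mean, was -0.20, -1.24 and -1.32 on combination arrays and -2.24, -1.43 and -0.82 on dexamethasone arrays. On vehicle arrays it was -0.28 to 0.18. On that scale Ppargc1b stood at 0.54, 0.04 and 0.27 on combination arrays and -1.39, -1.05 and -0.20 on dexamethasone arrays. The part of fibroblast content in the Ppargc1b values was not tested. In whole tissue, fewer cells of a type and less RNA per cell cannot be told apart.

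Ppargc1a, which encodes PGC-1α, has 3 probe sets (gene at chr14:63073505-63729215), and they did not move together. The brightest, 1393743_at, stood at 9.09, 9.16 and 9.69 on combination arrays, 8.59, 9.21 and 9.02 on dexamethasone arrays and 9.06, 8.90 and 8.84 on vehicle arrays. Combination arrays lay just above the vehicle arrays, and the dexamethasone arrays overlapped with both. The combination over vehicle was 0.38 ± 0.23 (SE, 95% interval -0.15 to 0.91, adjusted p = 0.854) and over dexamethasone 0.37 ± 0.23 (-0.16 to 0.90, adjusted p = 0.6372). Dexamethasone over vehicle was 0.01 ± 0.23 (-0.52 to 0.54, adjusted p = 0.9905). The interval for dexamethasone leaves room for a change of up to about 0.5 either way.

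The next Ppargc1a probe set, 1395518_at, gave 8.79, 8.38 and 7.00 on combination arrays, 7.90, 9.28 and 7.47 on dexamethasone arrays and 8.15, 8.75 and 8.12 on vehicle arrays. Both set C arrays, 7.00 and 7.47, were below the other 7 arrays, which lay between 7.90 and 9.28. All groups overlapped. The combination over dexamethasone was -0.16 and dexamethasone over vehicle -0.12 ± 0.54 (SE), the widest error of the 10 probe sets. Without the set C arrays, dexamethasone over vehicle became 0.24. The dimmest, 1370089_at, fell below the filter, with values of 5.56 to 5.83 on combination arrays, 4.54 to 6.96 on dexamethasone arrays and 4.36 to 6.23 on vehicle arrays. No direction for Ppargc1a was shared by its probe sets.

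Esrra encodes ERRα, the receptor through which PGC-1α acts on many respiratory chain genes (1374741_at, gene at chr1:213533309-213543432). It gave 10.18, 10.18 and 9.79 on combination arrays, 9.62, 11.09 and 9.73 on dexamethasone arrays and 9.99, 9.97 and 9.99 on vehicle arrays. Vehicle arrays differed by hardly anything, while dexamethasone replicate 2 stood far above all other arrays. Dexamethasone over vehicle was 0.16 ± 0.36 (SE, 95% interval -0.64 to 0.96, adjusted p = 0.8686), and without that array it turned to -0.31. The combination over dexamethasone was -0.10 (-0.90 to 0.71) and over vehicle 0.06 (-0.74 to 0.87). Neither direction passed any test.

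Esrrg encodes ERRγ, which in mouse muscle is most abundant in oxidative fibres and drives slow fibre and capillary genes (gene at chr13:101699043-102316877). Its brighter probe set, 1394577_at, gave 9.33, 10.07 and 9.66 on combination arrays, 9.95, 10.09 and 10.33 on dexamethasone arrays and 10.53, 10.04 and 10.61 on vehicle arrays. The other, 1381445_at, gave 7.25, 8.05 and 7.67 on combination arrays, 7.20, 8.39 and 7.85 on dexamethasone arrays and 8.88, 8.16 and 8.28 on vehicle arrays. Both were lowest on average in combination muscle and highest in vehicle muscle, and for 1381445_at every combination array lay below every vehicle array.

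The combination over vehicle was -0.70 ± 0.25 (SE, 95% interval -1.27 to -0.14, adjusted p = 0.8023) for 1394577_at and -0.79 ± 0.34 (-1.56 to -0.01, adjusted p = 0.8151) for 1381445_at. Both unadjusted intervals stayed below 0, yet neither passed over the whole array. Within set A the changes were -1.24 and -1.33, and within set B they were 0.03 and -0.11. The difference was thus seen in set A, which holds combination replicate 1, and not in set B. On that array Myh7, the slow myosin heavy chain, stood at 8.74 and Tnnt1, slow troponin T, at 7.42. On the other 8 arrays Myh7 lay between 14.14 and 14.96. Combination replicate 3 was also low in slow fibre genes, with Tnnt1 at 11.95 against 13.02 to 13.85 on the remaining 7 arrays, a list median of -1.27 relative to the vehicle mean, and the Esrrg probe sets at -0.73 and -0.77. Without combination replicate 1 the 2 Esrrg changes were -0.53 (adjusted p = 0.5788) and -0.59 (adjusted p = 0.6466), and the median change of the slow fibre list was -0.68 instead of -2.19. The part of the slow fibre content in the Esrrg values was not tested.

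Dexamethasone over vehicle was -0.26 ± 0.25 (SE, adjusted p = 0.6636) and -0.63 ± 0.34 (adjusted p = 0.4323) for the 2 Esrrg probe sets in the same order. With arrays scaled to 1 median instead, which moved the median of all tested probe sets to 0.20, the first of these became 0.16, still below that median. Combination over dexamethasone was -0.44 (95% interval -1.0 to 0.12, adjusted p = 0.584) and -0.16.

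Ppard encodes PPARδ, the PPAR most abundant in skeletal muscle (gene at chr20:6300527-6365707). Its tested probe set, 1374914_at, gave 7.80, 8.51 and 8.97 on combination arrays, 8.71, 8.76 and 9.10 on dexamethasone arrays and 8.38, 8.40 and 8.03 on vehicle arrays. Every dexamethasone array was above every vehicle array, and combination arrays spread over nearly the whole range. The excess of dexamethasone over vehicle was 0.59 ± 0.29 (SE, 95% interval -0.08 to 1.25, adjusted p = 0.3856), with 0.51 in set A and 0.36 in set B. The combination over dexamethasone was -0.43 (adjusted p = 0.6704) and over vehicle 0.16 (adjusted p = 0.9442). Both set C arrays, at 8.97 and 9.10, were above the other 7, and without them dexamethasone over vehicle was 0.45. A dimmer probe set, 1387684_at, fell below the filter at 4.60 to 5.58.

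Ppara encodes PPARα, which drives fat oxidation in liver and heart (gene at chr7:118712261-118780723). Its only probe set, 1387278_at, had a mean at the 18.02 percentile of all probe sets and was not tested. It gave 5.08, 4.30 and 5.95 on combination arrays, 4.64, 5.84 and 4.70 on dexamethasone arrays and 5.48, 4.57 and 4.26 on vehicle arrays. Deposited intensities lay between 1.2 and 82.2. No detection calls were used here, so whether such signals exceed background is not known, and no statement on Ppara can be made at this signal.

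Nrf1 has 3 probe sets (gene at chr4:59632366-59738166), of which 2 were tested, and both are dim. Probe set 1381895_at gave 6.17, 5.55 and 6.19 on combination arrays, 7.12, 6.25 and 6.54 on dexamethasone arrays and 5.51, 5.58 and 5.92 on vehicle arrays. All dexamethasone arrays were above all combination arrays and all vehicle arrays. Dexamethasone over vehicle was 0.97 ± 0.28 (SE, 95% interval 0.34 to 1.60), a 1.96-fold difference with an adjusted p of 0.1369, the lowest of these genes in any comparison. It was 1.41 within set A and 0.67 within set B. The combination over dexamethasone was -0.67 ± 0.28 (-1.29 to -0.04, adjusted p = 0.4246), with -0.95, -0.70 and -0.35 in sets A, B and C. The combination over vehicle was 0.30 (adjusted p = 0.9004).

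The brighter Nrf1 probe set, 1382071_at, gave a different picture. It stood at 4.79, 6.0 and 6.86 on combination arrays, 6.64, 6.16 and 7.29 on dexamethasone arrays and 6.64, 6.37 and 6.24 on vehicle arrays. The groups overlapped throughout, and both set C arrays (6.86 and 7.29) were above the other 7. Its change for dexamethasone over vehicle was 0.28 ± 0.48 (SE) and fell to -0.01 without the set C arrays. The combination over dexamethasone was -0.82 ± 0.48 (adjusted p = 0.6035), in which replicate 1 of the combination was the lowest array by far. The third, 1385617_at, lay below the filter at 4.35 to 6.07. The higher Nrf1 signal in dexamethasone muscle therefore rests on 1 of its probe sets and did not pass.

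Tfam has 1 probe set, 1367941_at (gene at chr20:17355373-17367422), and it is bright. It gave 10.24, 10.76 and 11.18 on combination arrays, 11.12, 10.73 and 11.27 on dexamethasone arrays and 10.68, 10.53 and 10.53 on vehicle arrays. The lowest dexamethasone array, 10.73, was only just above the highest vehicle array. Dexamethasone over vehicle was 0.46 ± 0.26 (SE, 95% interval -0.13 to 1.04, adjusted p = 0.4435), with 0.52 in set A and 0.20 in set B. The combination over dexamethasone was -0.32 (adjusted p = 0.7278) and over vehicle 0.14 (adjusted p = 0.9427). Both set C arrays were above the other 7, and without them dexamethasone over vehicle was 0.34.

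**Figure D2:**
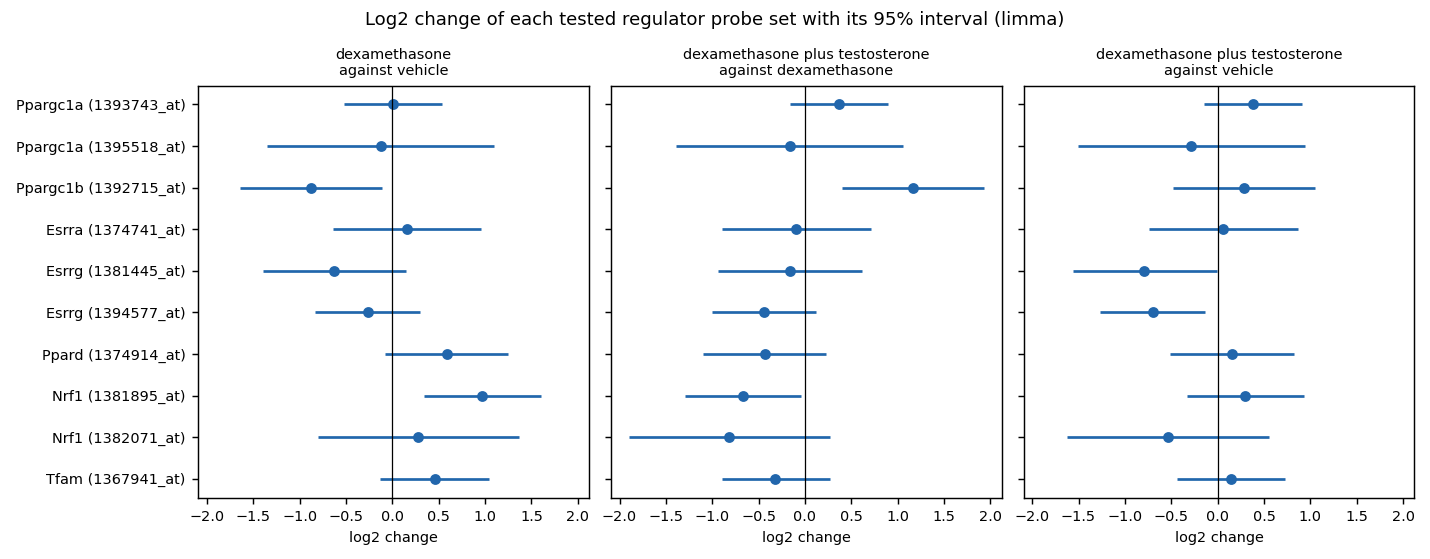
Log2 change (horizontal axis) of each tested probe set (rows) with its unadjusted 95% interval, in the 3 comparisons. The intervals that leave out 0 are those of Ppargc1b and Nrf1 1381895_at in the first and middle panels and of both Esrrg probe sets in the right panel, and none of the 30 changes passed the adjusted threshold.

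Over the 10 probe sets the median change was 0.08 for dexamethasone over vehicle, -0.24 for the combination over dexamethasone and 0.10 for the combination over vehicle, against 0.01, 0.00 and 0.02 over all tested probe sets. The coactivator Ppargc1b had its lowest mean in dexamethasone muscle, whereas Esrra, Ppard, Tfam and both tested Nrf1 probe sets had their highest mean there. Changes above 0 numbered 6, 2 and 6 of the 10 in the same order of comparisons, against 51.2%, 49.9% and 52.2% of all tested probe sets. No direction was common to all the genes in any comparison. The spread within groups ran from 0.27 for Ppargc1a 1393743_at to 0.79 for Ppargc1a 1395518_at (pooled SD), so the probe sets of a single gene spanned the whole range of noise.

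**Figure D3:**
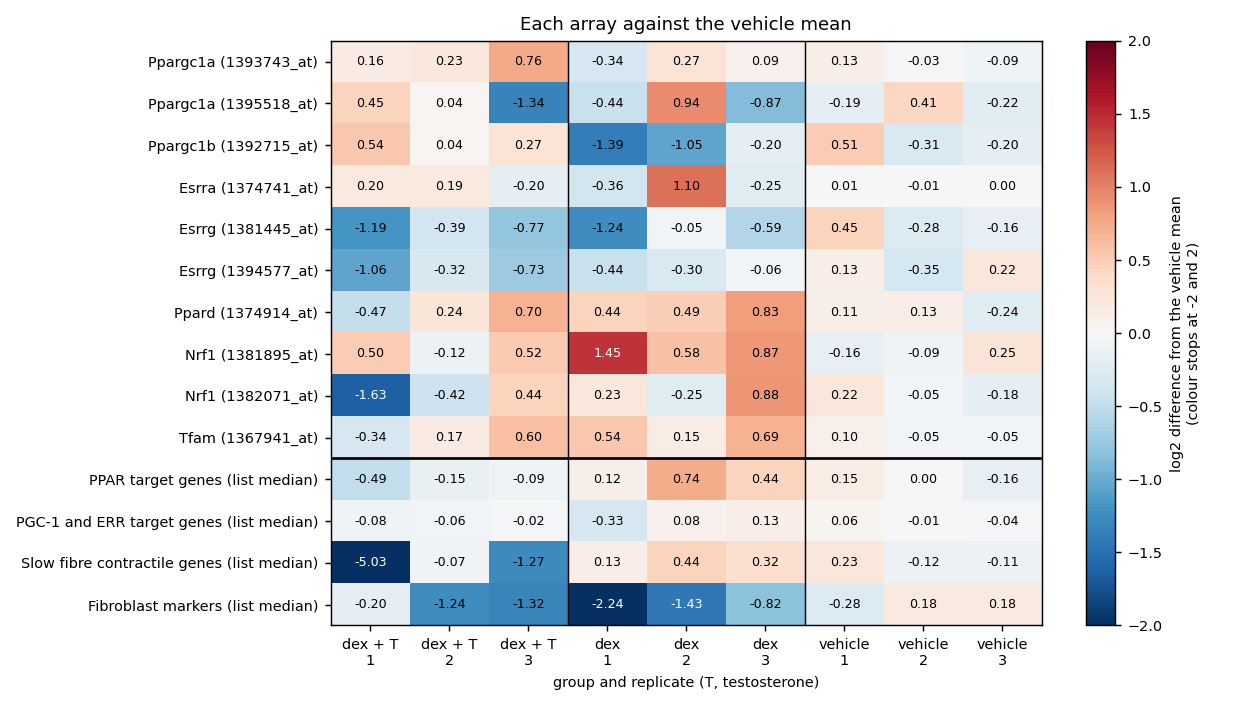
Log2 difference of each array (columns) from the vehicle mean, for the 10 tested probe sets and for the medians of 4 lists (rows). Combination replicate 1 stands at -5.03 for slow fibre genes and has the lowest Esrrg 1394577_at value of the 9 arrays, whereas the lowest Esrrg 1381445_at value is that of dexamethasone replicate 1, where slow fibre genes stand at 0.13, and the 3 Ppargc1b values in dexamethasone muscle are -1.39, -1.05 and -0.20.

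For each tested probe set, the named genes with the closest pattern over the 9 arrays were found among 10427 genes by Pearson's r. The arrays share group and technical set, so these values are a description. Ppargc1b was closest to Tab2 (r = 0.97), Rbm34 (0.96) and Eng (0.96), Eng being an endothelial TGF-β coreceptor. The 9 tested endothelial markers had a median change of 0.02 for the combination over dexamethasone, where Ppargc1b gave 1.16. Their median was -0.45 for dexamethasone over vehicle and -0.41 for the combination over vehicle. The part of endothelial content in the Ppargc1b values was not tested. Esrra was closest to Rln1 and Foxo1 (both 0.94) and Ldb1 (0.92). Foxo1 encodes a factor that drives atrophy genes in muscle. Both genes were highest on the same array, dexamethasone replicate 2. There Foxo1 stood at 10.17, against 5.28 to 7.94 on the other arrays, and Esrra at 11.09, against 9.62 to 10.18. Esrrg 1381445_at was closest to Mavs (0.95), Coq6 (0.92) and Cox7a1 (0.92), where Coq6 makes coenzyme Q and Cox7a1 is a muscle subunit of cytochrome oxidase. Esrrg 1394577_at was closest to Rragc (0.92), Ankrd44 (0.92) and Tk2 (0.91), the mitochondrial thymidine kinase.

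Ppard was closest to Sec24c (0.98), Ctu2 (0.97) and Jmjd6 (0.96), and Tfam to Abcf1 (0.98), Osgin1 (0.97) and Tmcc1 (0.97). The 2 Ppargc1a probe sets shared none of their closest genes: Fhip2b (0.93), Anapc16 (0.91) and Eif3d (0.91) for 1393743_at, and Zbtb47 (0.98), Uqcc1 (0.97) and Vps52 (0.96) for 1395518_at. The same held for Nrf1, with Cyfip1 (0.98), Use1 (0.96) and Arid3b (0.95) for 1381895_at, and Mpped2 (0.96), Tmem245 (0.95) and Rgs16 (0.95) for 1382071_at.

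Among 15 tested partners and repressors of PGC-1, 1 fell in dexamethasone muscle against vehicle muscle, none rose and 14 did not pass. Over all tested probe sets 1.05% passed in that comparison. The gene that fell was Fbxw7, a substrate adaptor of a ubiquitin ligase reported to mark PGC-1α for breakdown. Fbxw7 stood at 7.99, 7.99 and 7.58 on combination arrays, 6.67, 7.04 and 6.17 on dexamethasone arrays and 8.19, 7.78 and 8.37 on vehicle arrays. Dexamethasone arrays were below all others. Dexamethasone over vehicle was -1.49 ± 0.27 (SE, adjusted p = 0.03997), and a further probe set gave -1.47 (adjusted p = 0.06828). The combination over dexamethasone was 1.22 (adjusted p = 0.1221). The call was lost when any array but combination replicate 3 was left out (adjusted p 0.05603 to 0.176), and it passed under 4 of 12 other settings. Without the set C arrays it held at -1.20. The coactivator-induced muscle regulator Perm1 gave 0.87 for the combination over dexamethasone (adjusted p = 0.52). In the combination over vehicle the lowest p was that of the acetyltransferase gene Ep300, at -0.37 (adjusted p = 0.8359), and next Rb1, at 0.46 (adjusted p = 0.8804). The list medians were 0.00, 0.11 and 0.05 for dexamethasone over vehicle, combination over dexamethasone and combination over vehicle, an order kept for the lists that follow.

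None of 11 related receptors and RXR partners passed, and their medians were -0.22, 0.25 and 0.07. Rxrg, an RXR of skeletal muscle that pairs with PPARs, gave 0.75 for the combination over dexamethasone (adjusted p = 0.3684). Nr4a3, an orphan receptor gene, gave 1.21 there (adjusted p = 0.4706) and 0.86 for the combination over vehicle (adjusted p = 0.863). Rxrb gave 0.54 and Nr2f2 -0.65 for dexamethasone over vehicle (adjusted p = 0.3856 and 0.4231), and Nr4a1, induced by exercise, 0.51 for the combination over vehicle (adjusted p = 0.8302). None of 18 upstream kinases and factors passed either, with medians of -0.24, 0.26 and 0.05. Prkag2, a regulatory subunit of AMP-activated kinase, was nearest, at -1.30 for dexamethasone over vehicle (adjusted p = 0.07895) and 1.05 for the combination over dexamethasone (adjusted p = 0.2237). A further subunit gene of that kinase, Prkab1, gave 0.58 for dexamethasone over vehicle (adjusted p = 0.2285). Camk2a, a calcium-dependent kinase, gave 1.70 for the combination over dexamethasone (adjusted p = 0.2237) and 0.87 over vehicle (adjusted p = 0.843), and Mapk14, the p38α kinase, 0.55 for the combination over vehicle (adjusted p = 0.8151).

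Of 16 genes for copying and transcribing mitochondrial DNA, none passed, with medians of 0.20, -0.06 and 0.10. Tfb2m, the partner of TFAM at mitochondrial promoters, gave 0.45 for dexamethasone over vehicle (adjusted p = 0.248) and -0.41 for the combination over dexamethasone (adjusted p = 0.4173). Twnk, the mitochondrial DNA helicase, gave 0.76 for dexamethasone over vehicle (adjusted p = 0.2523), and the ribosomal protein gene Mrpl12 gave 0.39 for the combination over dexamethasone (adjusted p = 0.4719). In the combination over vehicle, the topoisomerase gene Top1mt gave 0.43 (adjusted p = 0.8407) and Polg2, a subunit of the mitochondrial DNA polymerase, 0.37 (adjusted p = 0.844). None of 9 nuclear factors for respiratory genes other than Nrf1 passed, with medians of 0.29, -0.34 and -0.05. Myc gave 0.81 for dexamethasone over vehicle (adjusted p = 0.1462) and -1.04 for the combination over dexamethasone (adjusted p = 0.1342), and its partner Max 0.65 for dexamethasone over vehicle (adjusted p = 0.13). Nfe2l2, the oxidative stress factor NRF2, gave -0.57 for the combination over dexamethasone (adjusted p = 0.3149). Yy1 gave 0.19 and Myc -0.24 for the combination over vehicle (both adjusted p = 0.9049).

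Target genes of the PPARs were tested for 27 genes, of which 1 rose, none fell and 26 did not pass in dexamethasone muscle against vehicle muscle. Over all tested probe sets 1.05% passed there. The gene that rose was Pdk4, the kinase that shuts off pyruvate oxidation. It stood at 11.62, 12.38 and 12.55 on combination arrays, 13.90, 13.85 and 12.91 on dexamethasone arrays and 11.63, 11.61 and 11.93 on vehicle arrays. Dexamethasone arrays were above all others. Pdk4 rose in dexamethasone muscle against vehicle muscle by 1.82 ± 0.33 (SE, adjusted p = 0.03997), and a dimmer probe set gave 0.95 (adjusted p = 0.7609). The call was lost without any of 6 arrays, namely combination replicate 2, dexamethasone replicates 1 and 2 and the 3 vehicle replicates (adjusted p 0.06839 to 0.1553), and it passed under 6 of 12 other settings. Without the set C arrays Pdk4 was 2.17 (adjusted p = 0.01507), and Angptl4, a secreted lipase inhibitor, passed as well at 2.57. Plin2, a lipid droplet protein, fell past the threshold under 3 other settings, with changes of -0.74 to -0.77 (adjusted p 0.03342 to 0.04702). Cd36, a fatty acid transporter, passed at 1.73 with technical set as a block (adjusted p = 0.02153), and Cpt1b, the carnitine palmitoyltransferase of muscle, at 0.70 with a variance trend (adjusted p = 0.03835). Mlycd, which breaks down malonyl-CoA, gave 1.24 (adjusted p = 0.08121) and passed under 3 of the 12 other settings and without combination replicate 1 (adjusted p 0.03208 to 0.04374).

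In the combination over dexamethasone none of the 27 PPAR targets passed. Nearest were Cpt1b, at -0.99 ± 0.19 (SE, adjusted p = 0.09586) and Acadl, an acyl-CoA dehydrogenase, at -1.12 ± 0.23 (adjusted p = 0.1059). Under other settings some did pass: Cpt1b under 3 (adjusted p 0.02067 to 0.04592), Acadl with a variance trend (adjusted p = 0.0253), Cd36 with technical set as a block at -2.07 (adjusted p = 0.03911), and Angptl4 without set C at -2.99 (adjusted p = 0.04697) and without dexamethasone replicate 3 alone at -2.76 (adjusted p = 0.04237). Cpt1b stood at 11.82, 11.91 and 11.93 on combination arrays, 12.73, 13.15 and 12.75 on dexamethasone arrays and 12.32, 11.97 and 12.24 on vehicle arrays. Combination and dexamethasone arrays were well apart. In the combination over vehicle Plin2 and Fabp4, a fatty acid binding protein, both gave -0.63 (adjusted p = 0.8023).

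The medians of the 27 PPAR targets were 0.39, -0.65 and -0.29. Of them, 23, 1 and 5 lay above 0, against 51.2%, 49.9% and 52.2% of all tested probe sets. Their arrays did not overlap for 10 higher and 1 lower in the first comparison, 11 lower in the second and 6 lower in the last. Of all tested probe sets, 12.5% were higher and 10.4% lower without overlap in the first, 7.35% lower in the second and 5.79% lower in the last. These shares cover dim probe sets too, whereas each listed gene is its brightest probe set, so the 2 are not fully alike. Relative to the vehicle mean, the list's median was -0.49, -0.15 and -0.09 on combination arrays and 0.12, 0.74 and 0.44 on dexamethasone arrays, against -0.16 to 0.15 on vehicle arrays. With arrays scaled to 1 median, where all tested probe sets had a median of 0.20, -0.04 and 0.19, the list gave 0.75, -0.68 and 0.05. Its value for the combination over vehicle was thus above 0 there but still below the median of all tested probe sets. The slow fibre list moved over the same arrays, with medians of 0.29, -2.40 and -2.19, and -5.03 on combination replicate 1. Its part in the PPAR target values was not tested, and neither was that of the PPARs themselves. With any 1 array left out, the PPAR target median for the combination over dexamethasone stayed between -0.85 and -0.43.

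None of 27 target genes of PGC-1 and the oestrogen-related receptors passed in any comparison, and their medians were -0.09, -0.07 and -0.08. The list covers respiratory chain, citric acid cycle and antioxidant genes. Slc2a4, the insulin-responsive glucose transporter, gave 0.63 for dexamethasone over vehicle (adjusted p = 0.1564) and -0.45 for the combination over dexamethasone (adjusted p = 0.4372). Ndufb5, a subunit of complex I, gave -0.46 for dexamethasone over vehicle (adjusted p = 0.3033) and 0.38 for the combination over dexamethasone (adjusted p = 0.5335). Vegfa, an angiogenic factor induced through ERRα, gave -0.80 for the combination over vehicle (adjusted p = 0.8023), and Sdhb, a subunit of complex II, -0.39 (adjusted p = 0.8407). With arrays scaled to 1 median the list's medians were 0.26, -0.03 and 0.29, beside 0.20, -0.04 and 0.19 for all tested probe sets.

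**Figure D4:**
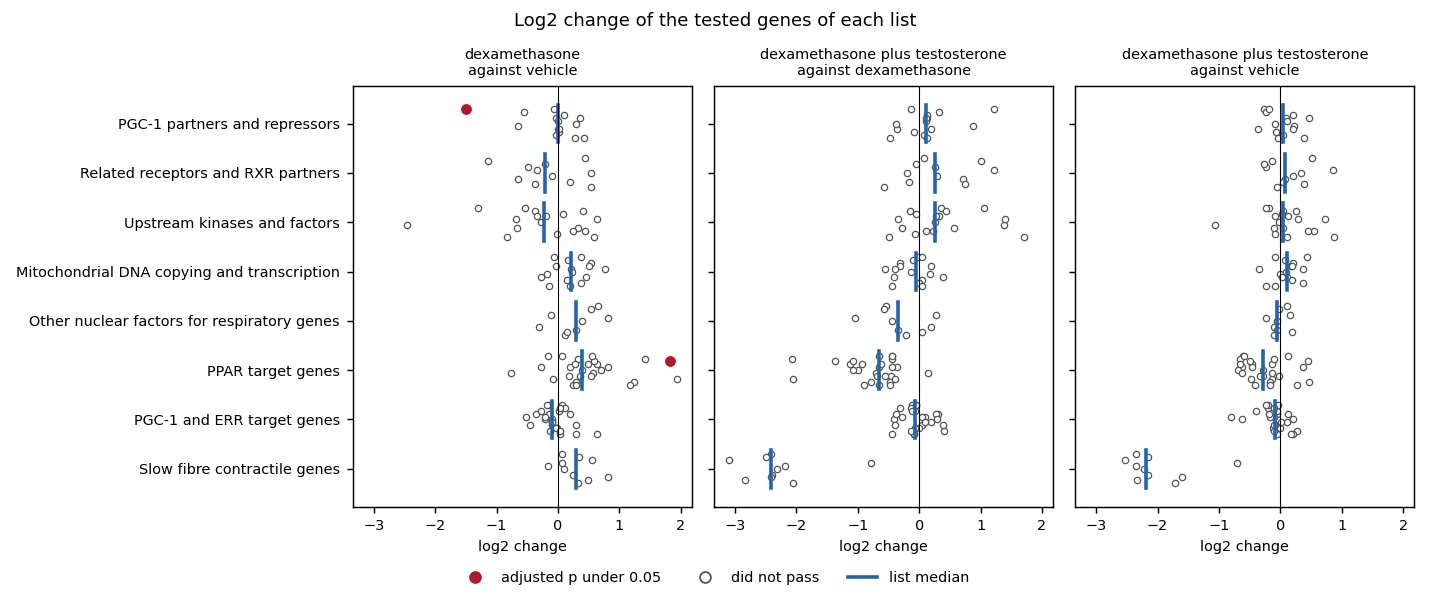
Log2 change (horizontal axis) of each tested gene of the 7 lists and of the slow fibre genes (rows), with list medians as blue lines and genes past the threshold in red. PPAR targets lie mostly right of 0 for dexamethasone over vehicle and left of 0 for the combination over dexamethasone, and Pdk4 and Fbxw7 are the only filled points.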

How the data were processed

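Per the labels, biotin-labelled total RNA of each animal was hybridised to 1 Affymetrix rat expression array. The deposited values are linear intensities, 1 per probe set. Neither the signal algorithm nor the scaling or build is named in the labels. The 57 control probe sets were left out. The log2 of the deposited intensity plus 16 was quantile normalized, and the 18625 probe sets with a mean at or above the 40th percentile were fitted with limma 3.58.1 in R 4.3.3 (lmFit, eBayes, group means over 9 arrays). A log2 change understates that of dim probe sets. The fit was tested on simulated data with independent noise and no technical sets. The planted changes were larger than any change of the tested probe sets of these genes. That test therefore says nothing on changes of their size. The number of arrays limits the precision.

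Of 31042 probe sets, 20826 had 1 symbol, 436 several and 9780 none here, and 20758 symbols were matched by gene ID to GRCr8. A list gene is its probe set with the highest mean. The members and lists were chosen with earlier results of these data known. The naming rule took every member and, per list and comparison, up to 4 genes past the threshold or the 2 lowest p, and the 3 genes of highest r. Angptl4 and examples beyond that rule were chosen after their values were seen. Technical sets come from the trimmed mean signal (2% off each end) and a Gapdh 3'/5' ratio above 3. Alternatives covered scaling, pseudocount, filter, variance model, samples, blocks and probe set.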

Additional observations from a re-analysis of the deposited data

How the results depend on the processing

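No tested probe set of the 8 genes passed in any comparison under the 12 other settings or with any of the 9 arrays left out. Of 633 alternative changes, 0 passed and 45 changed sign. For dexamethasone over vehicle, Ppargc1a 1395518_at turned to 0.09 with arrays scaled to 1 median, 0.24 with technical set as a block and 0.24 without set C. Ppargc1a 1393743_at turned to -0.02 with a common trimmed mean, -0.14 with the set block and -0.03 without set C, and its other probe set gave -0.12. Esrrg 1394577_at turned to 0.16 under median scaling (where all tested probe sets had a median of 0.20, above both values that turned), and Nrf1 1382071_at to -0.14 with the set block and -0.01 without set C. For the combination over dexamethasone, the other Ppargc1a probe set gave -0.16. For the combination over vehicle, the set block and leaving out set C gave 0.07 and 0.23 for Ppargc1a 1395518_at, -0.09 and -0.11 for Ppard, and -0.03 and -0.08 for Tfam. There the other Ppargc1a probe set gave -0.29 and the other Nrf1 probe set 0.30. Leaving out set C and dropping the filter, an alternative chosen after seeing the data, turned the same signs. The cause was not tested.

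With 1 array left out, dexamethasone over vehicle ranged from -0.66 to 0.25 for Ppargc1a 1395518_at, -0.13 to 0.18 for Ppargc1a 1393743_at, -0.31 to 0.42 for Esrra and -0.01 to 0.55 for Nrf1 1382071_at. The combination over dexamethasone ranged from -0.54 to 0.37 for Ppargc1a 1395518_at, -0.36 to 0.37 for Esrra and -0.46 to 0.13 for Esrrg 1381445_at. The combination over vehicle ranged from -0.66 to 0.24 for Ppargc1a 1395518_at, 0.00 to 0.19 for Esrra, -1.01 to 0.01 for Nrf1 1382071_at, -0.11 to 0.48 for Ppard and -0.08 to 0.39 for Tfam.

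Over all probe sets, the 196 calls for dexamethasone over vehicle became 130 under median scaling (82.3% higher, against 54.1%), 54 and 414 with pseudocounts of 1 and 64, 48 with no filter, 469 with a filter at the 60th percentile, 510 with a variance trend, 123 with only the 2 groups, 460 without set C, 117 when the filter was dropped too, and 1 to 340 with 1 array left out. The 21 for the combination over dexamethasone became 6 (50% higher, against 61.9%), 5, 102, 0, 83, 149, 0, 39 and 0 in the same order, and 0 to 67. Those for the combination over vehicle stayed at 0, where 1139 had an unadjusted p under 0.05. The replicate numbers were not used to pair the arrays. Deviations of same-numbered arrays correlated at -0.20 to 0.59, and those of differently numbered arrays at -0.54 to 0.35. Replicate 2 of each group is set B, so pairing cannot be told apart from the technical set. A replicate block left 0 calls among the 8 genes, and 13, 0 and 0 over all probe sets. Dim signal limits Ppara and Nrf1, and an SE of 0.23 to 0.54 limits all 10 tested probe sets.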
